A study of Danio rerio with 6 samples.

Results

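Oxidative phosphorylation, the set of reactions by which mitochondria make ATP, was examined gene by gene in coro1a-labelled blood cells of the larval zebrafish kidney. Members were the rows with an Ensembl gene ID whose symbol names a subunit, or a factor named after one, of the respiratory complexes (nduf, sdh, uqcr, cox4 to cox8 and atp5 genes, and the mitochondrial mt-nd, mt-cyb, mt-co and mt-atp genes). The rule used names alone and found 121 members among 27314 rows of the table, of which 108 lie in the nuclear genome and 13 in the mitochondrial genome. By complex, the nuclear members were 51 for complex I, 9 for complex II, 8 for complex III, 20 for complex IV and 20 for complex V. The mitochondrial members were 7 for complex I, 1 for complex III, 3 for complex IV and 2 for complex V. There were 12 assembly factors among the nuclear members (8 ndufaf and 4 sdhaf genes), which help to build a complex and are not part of it. A uqcr11 locus without an Ensembl ID was left out by the rule, and cyc1, a complex III gene, is described with the neighbouring pathways.

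Both groups were larvae that carried the transgene Tg(coro1a:DenNTR), although the genotype label reads WT. The coro1a promoter, active in leukocytes, drives a fusion of NTR and Dendra2, a protein whose colour light can convert, so the DMSO controls carry the same transgene and received the same laser treatment. Larvae of 1 group had DMSO and those of the other MTZ, which with NTR transgenes is usually metronidazole, turned by nitroreductase into a cell toxin; the labels give no dose. At 3.5 dpt and 9 dpf, the kidney was exposed to 405-nm light for 30 s, cells of about 80 larvae were mixed, and 50 red cells went into each Smart-seq2 library, with 3 libraries per group. Nothing in the labels ties the libraries of a group to separate pools, so a p-value here measures only how these libraries vary, and that variation may be technical.

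The electron transport chain passes electrons from NADH (complex I) and succinate (complex II) through ubiquinone, complex III and cytochrome c to oxygen at complex IV. Complexes I, III and IV pump protons across the inner membrane, and complex V, the ATP synthase, uses the gradient to make ATP. Complex II is made from nuclear genes alone, whereas the others join nuclear subunits to a core encoded by mitochondrial DNA, which is transcribed as long precursors that are cut into single messages. Blood cell types are known to rely on the chain to different degrees, with neutrophils usually described as mainly glycolytic.

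The libraries held between 14058382 and 20674280 counts. The leukocyte list was detected in full, with all 9 genes present and sums between 9774 and 15888 CPM (CPM being counts scaled to a common TMM-adjusted library size). Markers of mitochondria-rich kidney tubule cells were nearly absent: 3 of 10 had any count, 7 (among them cdh17, slc12a3 and atp1a1a.4) were at 0 in every library, and their sum reached 42.8 CPM in DMSO 1 and at most 0.27 CPM elsewhere. DMSO 1 stood apart by skeletal muscle transcripts, a list of 24 genes of which 21 had counts. They summed to 9996 CPM in DMSO 1, to 13.2 and 74.4 CPM in DMSO 2 and DMSO 3, and to 26.5 CPM at most in MTZ. The skin epithelium list was also highest in DMSO 1, at 618 CPM against 53.9 to 350 CPM elsewhere. There krt4, krt5, krtt1c19e and krt91 had 84.5 to 155 CPM, against at most 0.124 CPM elsewhere, while krt8 and cldni of that list were highest in MTZ 2. MTZ 1 stood apart by neutrophil genes, with all 9 genes found having counts. They summed to 16125 CPM there, against 1084 and 1597 CPM in the other MTZ libraries and between 1156 and 5766 CPM in DMSO. Most of the sum in DMSO 2, MTZ 2 and MTZ 3 was srgn, at 996, 1038 and 1228 CPM. The gene lyz had 3453 and 3183 CPM in DMSO 1 and DMSO 3 and 9301 CPM in MTZ 1, against at most 6.68 CPM elsewhere. In MTZ 1, mmp9 was at 0 and ncf1 (175 CPM) lay below DMSO 1 (188 CPM). MTZ 3 stood apart by exocrine pancreas genes (11 of 13 names found, 7 with counts), which summed to 544 CPM there and to at most 13.6 CPM elsewhere. Macrophage genes, all 9 with counts, summed to 1229, 434 and 794 CPM in DMSO and 1556, 51.3 and 2619 CPM in MTZ, highest in MTZ 3 and lowest in MTZ 2. Most of the sum in MTZ 3 was mfap4, at 1520 CPM. Of the other genes, c1qa, c1qb, c1qc and marco were highest in MTZ 3, while mpeg1.1 (569 CPM) and csf1ra (48.7 CPM) were highest in DMSO 1. Stem and progenitor genes (10 genes, 9 with counts) summed to 1217, 233 and 703 CPM in DMSO and 1350, 1413 and 1099 CPM in MTZ, with overlap. The list of T cell genes (12 of 13 names found, 10 with counts, cd4-1 and cd8a at 0 in every library) summed to 1013, 1381 and 1368 CPM in DMSO and was lower in every MTZ library, at 212, 851 and 729 CPM. Its genes did not all follow the sum. In every MTZ library lck and tox were lower, but cd28 was higher, at 36.1, 82 and 61.5 CPM against 16.3, 21.6 and 8.35 CPM in DMSO. The other T cell genes with counts, such as il7r, zap70, gata3, rag1 and rag2, overlapped between the groups. The liver list (8 genes, 4 with counts, fga, fgb, apoa2 and serpina1 at 0 in every library) summed to 18 to 82.6 CPM in DMSO and was higher in every MTZ library, at 254 to 697 CPM, where nearly all of it was rbp4. The part that these cell types play in the values below was not tested, and in libraries of pooled cells a lower share of a cell type and less RNA per cell cannot be told apart.

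Oxidative phosphorylation genes took a steady and sizeable share of every library, between 6.47% and 7.93% of all counts. The nuclear members took between 2.45% and 3.48%, and the 13 mitochondrial members between 3.85% and 4.62%. There were 109 members with counts in all 6 libraries, 8 in some of them and 4 in none (cox4i1l, ndufs8b, ndufa9b and ndufa4l2b). Of the nuclear members, 87 lay at or above 10 CPM in every library. The filter on low counts was passed by 111 members, 99 nuclear and 12 mitochondrial. These varied less between libraries than most genes did, with a median coefficient of variation (SD over mean, 6 libraries) of 22.8%, against 82.1% over the 10283 genes tested. They were also more abundant, with a median of 236 CPM against 27.5 CPM, and abundance was not matched in this description. The 12 assembly factors varied more, with a median of 49.0% at 43.9 CPM. Among the steadiest members was atp5f1b, the catalytic beta subunit of the ATP synthase, at 7.29%.

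Summed over the nuclear members, DMSO 1 lay with the MTZ libraries and below the other DMSO libraries. The sums were 26809, 33413 and 33270 CPM in DMSO 1 to 3 and 26284, 29015 and 28397 CPM in MTZ 1 to 3, so the groups overlapped. Complex IV had the sums 4971, 6600 and 6656 CPM in DMSO and 4753, 5599 and 4992 CPM in MTZ. Complex II had 1103, 1257 and 1350 CPM in DMSO and 899, 1137 and 894 CPM in MTZ. In both, a DMSO library sat among the MTZ values. Complexes I, III and V had means of 9380 ± 1210, 2629 ± 419 and 11842 ± 1100 CPM in DMSO (SD, n = 3). In MTZ these means were 8530 ± 806, 2444 ± 231 and 10833 ± 364 CPM, and each complex overlapped between the groups. On the log2 scale the MTZ mean of all nuclear members stood at -0.16 relative to DMSO, at -0.25 without DMSO 1 and at -0.10 without DMSO 2. Counted member by member, 20 of the 99 tested nuclear members had their lowest value in DMSO 1, 34 in MTZ 1 and 20 in MTZ 3, against 6, 6 and 13 in DMSO 2, DMSO 3 and MTZ 2. Over nuclear and mitochondrial members together, the sums were 77338, 76033 and 75886 CPM in DMSO and 65002, 75565 and 74505 CPM in MTZ, which did not overlap by a narrow margin. As shares of all counts, without TMM factors, they were 7.08%, 7.93% and 7.74% in DMSO and 6.47%, 7.21% and 7.26% in MTZ. These shares overlapped, so the separation of the sums depended on the scaling.

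**Figure D1:**
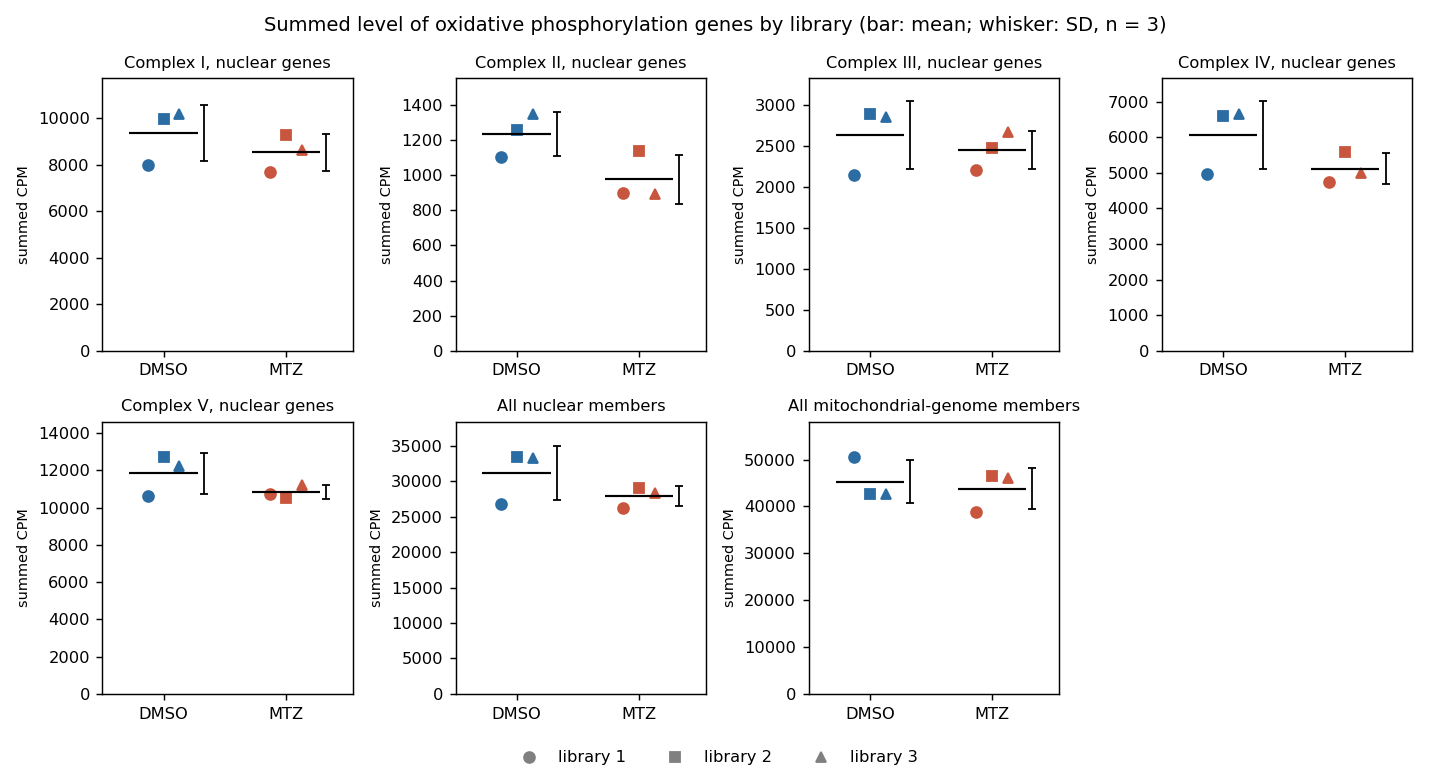
Summed level in CPM of the members of each complex (nuclear genes) and of all nuclear and all mitochondrial-genome members, with 1 point per library, a bar for the mean and a whisker for the SD (n = 3). DMSO 1 lies below the other DMSO libraries in every nuclear panel and above them in the mitochondrial panel, and the groups overlap throughout.

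Gene by gene, most members had lower means in MTZ, and no member passed the test. EdgeR's quasi-likelihood test called 0 of 111 members and 0% of the 10283 genes tested (adjusted p = 0.9997 for every member). The spread between libraries was wide, with a common biological coefficient of variation of 1.42 over all genes, so a count of 0 calls does not show that members were alike in the groups. The median SE of the log2 fold change was 0.34 for members and 1.72 for all genes. DESeq2 and limma voom also called 0 members, and edgeR without the filter called 0, while DESeq2 called 1.33% of the genes to which it gave an adjusted p. Of the 111 members, 75 were lower in MTZ and 36 higher; the median of their log2 fold changes was -0.21, against 0.02 over all genes tested, of which 49.1% were lower. The nuclear members had 66 of 99 lower (median -0.21), and the mitochondrial members 9 of 12 (median -0.19). The nuclear median was -0.10 without DMSO 2. With a library left out, the share of nuclear members that were lower ran from 61.0% (without MTZ 1) to 76.0% (without MTZ 2). At an unadjusted p under 0.05 there were 4 members, all lower (atp5fa1, atp5pf, ndufv1 and mt-atp6), against 3.18% of all genes at that level, 1.35% lower and 1.83% higher. All 3 MTZ libraries lay below all 3 DMSO libraries in 14 members, 12.6% of those tested, against 5.17% of all genes. All 3 lay above in 1 member (ndufb11), 0.901%, against 5.58% of all genes.

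**Figure D2:**
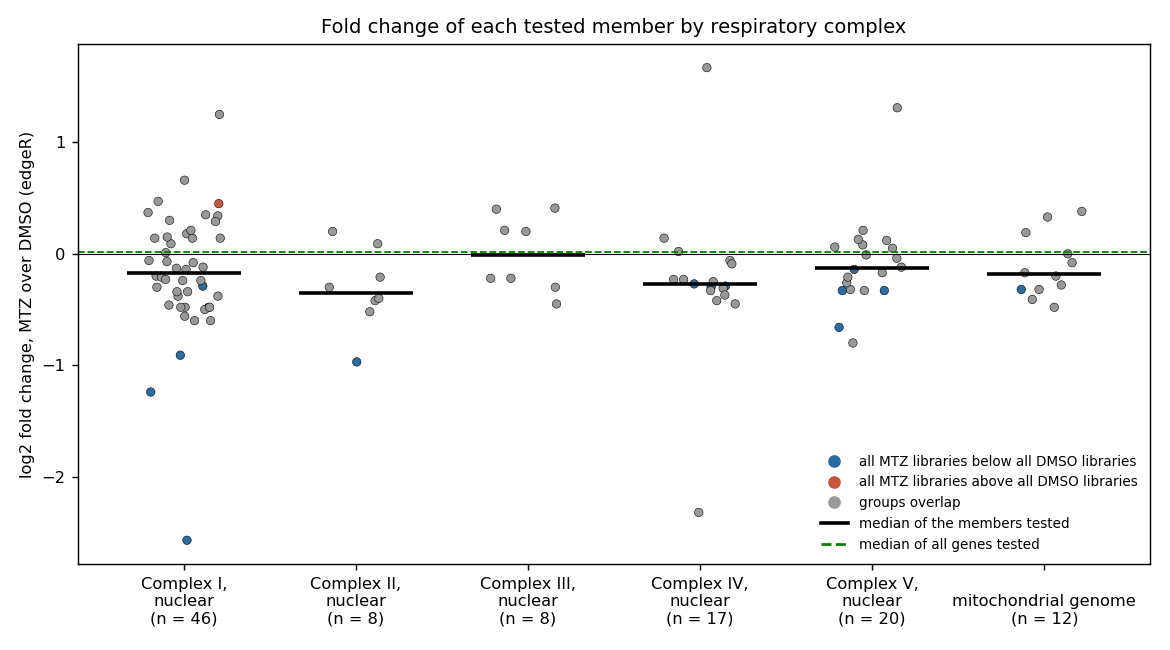
Log2 fold change of MTZ over DMSO for each tested member, by complex and genome. Black bars are medians (from -0.35 for complex II to -0.01 for complex III), the dashed line is the median of all genes tested (0.02), and coloured points are members whose libraries do not overlap between the groups, 14 lower and 1 higher. The complex III median was -0.23 with a filter of 10 CPM in 3 libraries, which leaves out the weakly detected uqcrb.

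Of the genes given here for the NADH-oxidising arm of complex I, ndufv2 alone had a log2 fold change above 0 (0.34 ± 0.41). The gene ndufv1 (ENSDARG00000036438) encodes the subunit that binds NADH, and it had 310, 339 and 276 CPM in DMSO and 197, 180 and 116 CPM in MTZ. Every MTZ library was below every DMSO library, and its log2 fold change was -0.91 ± 0.31 (SE; edgeR adjusted p = 0.9997, unadjusted p = 0.0192). Its direct partner ndufv2 (ENSDARG00000013044), an iron-sulfur subunit of the same arm, had 83.0, 104 and 125 CPM in DMSO and 159, 133 and 103 CPM in MTZ, with overlapping groups. The ratio of ndufv1 to ndufv2 counts was 3.74, 3.26 and 2.21 in DMSO and 1.24, 1.36 and 1.13 in MTZ, and so did not overlap between the groups. This pair was chosen after its values were seen. Another iron-sulfur subunit of the arm, ndufs1, had means of 129 ± 57.2 CPM in DMSO and 119 ± 90.9 CPM in MTZ. The log2 fold changes of ndufs1 and ndufv3 were -0.12 ± 0.63 and -0.60 ± 0.44.

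In the part of complex I that leads electrons on to ubiquinone, the subunit gene ndufs3 (ENSDARG00000015385) had 381, 418 and 443 CPM in DMSO. It had 282, 372 and 234 CPM in MTZ, with no overlap (log2 fold change -0.48 ± 0.27). The iron-sulfur subunit gene ndufs8a (ENSDARG00000051986) was weakly detected, with 320, 383 and 274 counts in DMSO and 1, 85 and 114 counts in MTZ. Its groups did not overlap, its log2 fold change was -2.57 ± 2.10, and its paralog ndufs8b was at 0 in every library. The gene ndufs8a was chosen after its values were seen, and this part of complex I was not lower throughout. The subunit genes ndufs7, ndufa5 and ndufa9a of the same part overlapped between the groups. Their log2 fold changes were -0.14 ± 0.27, 0.01 ± 0.36 and 0.29 ± 0.30, and ndufa5 changed sign with the scaling of the libraries.

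Accessory subunits of complex I lay on both sides. The gene ndufs5 (ENSDARG00000006290), for an accessory subunit of the membrane arm, had means of 219 ± 37.1 CPM in DMSO and 149 ± 40.5 CPM in MTZ (log2 fold change -0.56 ± 0.34), and MTZ 2 lay within the DMSO values. The accessory subunit gene ndufb9 (ENSDARG00000041314) had 494, 598 and 562 CPM in DMSO and 404, 491 and 460 CPM in MTZ, with no overlap but with the highest MTZ value close to the lowest DMSO value. The single member with all MTZ libraries above DMSO was ndufb11 (ENSDARG00000043467), another accessory subunit gene of the membrane arm. It had 195, 210 and 193 CPM in DMSO and 226, 259 and 335 CPM in MTZ (log2 fold change 0.45 ± 0.29). Among the 12 assembly factors of complexes I and II, 6 were higher and 6 lower. Of these, ndufaf4 (ENSDARG00000077859) was the member without overlap (8.33%, against 5.17% of all genes). It had 41.8, 35.8 and 34.9 CPM in DMSO and 9.34, 12.9 and 25.3 CPM in MTZ. Over all tested nuclear members of complex I, 29 of 46 were lower, with a median of -0.17, which moved to -0.05 without MTZ 1.

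Complex II, succinate dehydrogenase, also belongs to the tricarboxylic acid cycle. Its flavoprotein gene sdha (ENSDARG00000016721), which oxidises succinate, had 223, 347 and 292 CPM in DMSO and 193, 177 and 71.3 CPM in MTZ. No MTZ library reached the DMSO values, and MTZ 3 was by far the lowest (log2 fold change -0.97 ± 0.42, edgeR adjusted p = 0.9997). Without MTZ 3 the log2 fold change was -0.63. The iron-sulfur partner sdhb (ENSDARG00000075768) had 158, 150 and 192 CPM in DMSO and 145, 282 and 149 CPM in MTZ, with MTZ 2 highest of all. The ratio of sdha to sdhb counts was 1.41, 2.31 and 1.52 in DMSO and 1.33, 0.627 and 0.478 in MTZ, which did not overlap, although DMSO 1 and MTZ 1 were close. This pair too was chosen after its values were seen, and sdha already did not overlap by itself. Ratios of atp5fa1 to atp5f1b, mt-nd5 to mt-nd4 and mt-cyb to mt-atp6, which were also computed, overlapped between the groups. The membrane anchor genes sdhc and sdhdb had log2 fold changes of -0.21 ± 0.28 and -0.42 ± 0.30, with overlapping groups. The paralog sdhda had 24 counts in DMSO 3 and none elsewhere, so that nearly all counts of this anchor came from sdhdb. Of 8 tested members 6 were lower (median -0.35, or -0.20 without DMSO 3).

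Complex III passes electrons from ubiquinol to cytochrome c, and its members were evenly split, 4 higher and 4 lower, with a median of -0.01 that ran from -0.12 (without DMSO 1) to 0.06 (without MTZ 1). The gene uqcrc1 (ENSDARG00000052304), for a core structural subunit, had 719, 1158 and 987 CPM in DMSO and 545, 714 and 843 CPM in MTZ. MTZ 3 lay above DMSO 1, and the log2 fold change was -0.45 ± 0.26, or -0.60 without DMSO 1 and -0.28 without DMSO 2. The Rieske iron-sulfur gene uqcrfs1 (ENSDARG00000007745) had 536, 538 and 705 CPM in DMSO and 721, 583 and 746 CPM in MTZ (0.21 ± 0.23). The hinge subunit gene uqcrh (ENSDARG00000059128), whose protein helps cytochrome c to dock, had means of 342 ± 113 CPM in DMSO and 393 ± 76.4 CPM in MTZ. The small subunit gene uqcrq had 138, 227 and 167 CPM in DMSO and 155, 145 and 135 CPM in MTZ, with overlap. The gene uqcrb, for a subunit of the same complex, was nearly absent at between 1.24 and 2.97 CPM. It is among the 4 higher members (0.40 ± 1.61). With a filter of 10 CPM in 3 libraries, which leaves uqcrb out, the median of complex III was -0.23, so the median of -0.01 depends on this gene.

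**Figure D3:**
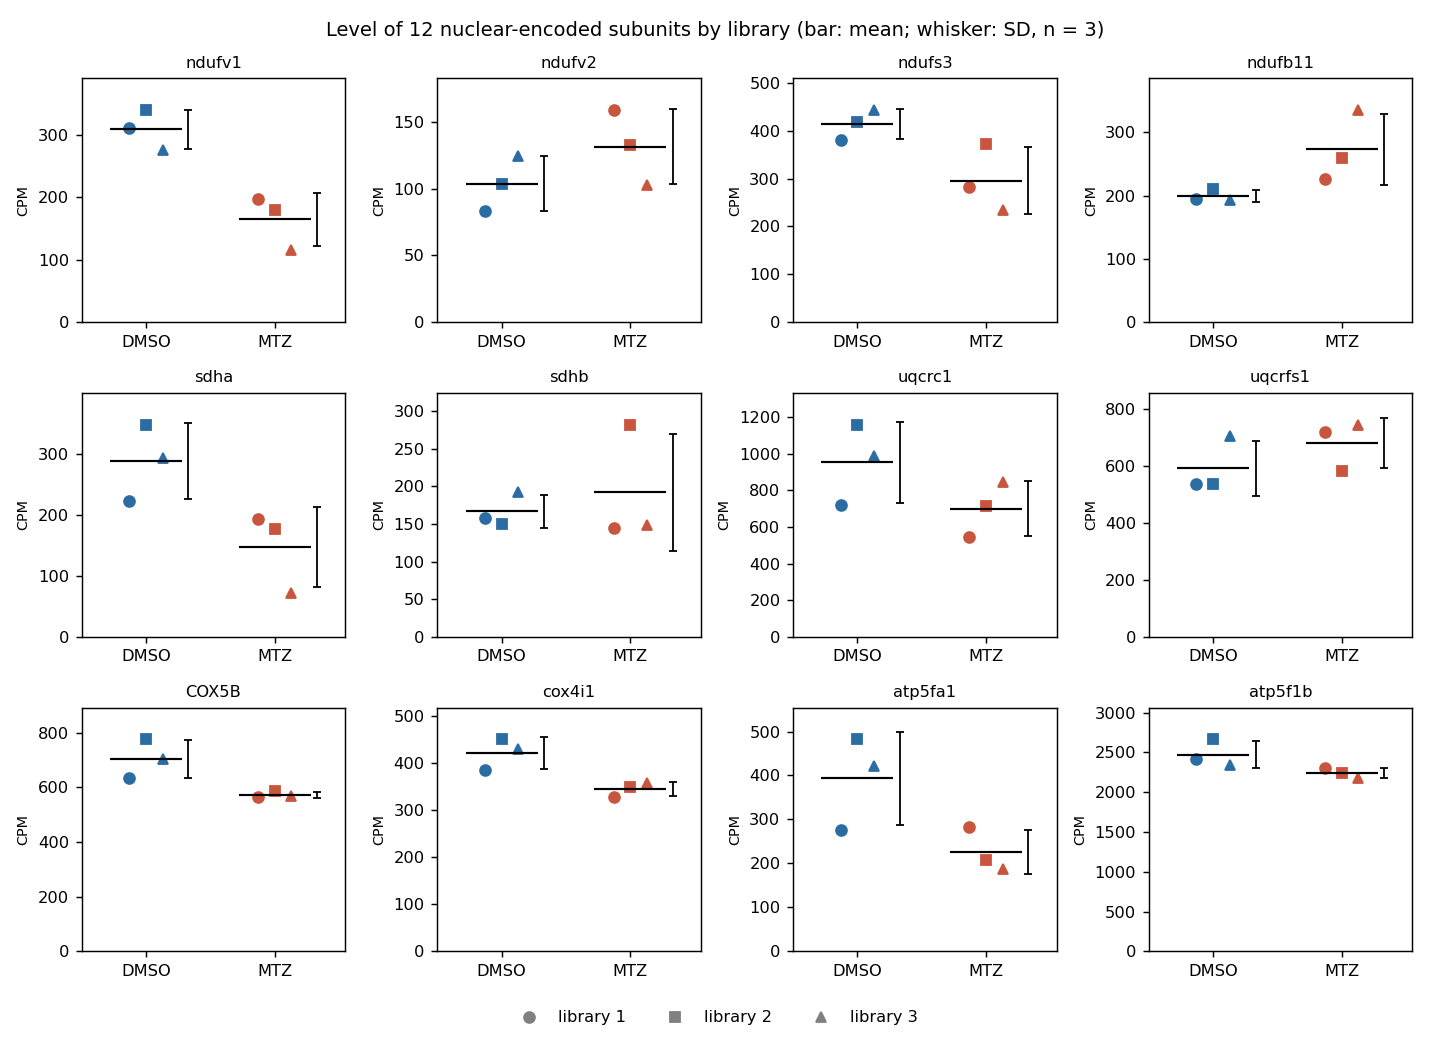
Level in CPM of 12 nuclear-encoded subunits of complexes I to V, with 1 point per library, a bar for the mean and a whisker for the SD (n = 3). In ndufv1, ndufs3, sdha, COX5B, cox4i1 and atp5f1b every MTZ library lies below every DMSO library, in ndufb11 every MTZ library lies above, and in the others the groups overlap.

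Complex IV, cytochrome c oxidase, had 14 of 17 tested nuclear members lower, with a median of -0.27. That share, 82.4%, was above the 75% of complex II, but the order turned without DMSO 2 (82.4% against 87.5%) and without DMSO 3 (66.7% against 75%). With a library left out the median ran from -0.40 (without DMSO 1) to -0.19 (without DMSO 3). In 3 of the 17 (17.6%, against 5.17% of all genes) every MTZ library lay below every DMSO library. Among nuclear members of the other complexes, that share was 20% in complex V, 12.5% in complex II, 10.9% in complex I and 0% in complex III. The gene COX5B (ENSDARG00000015978), for a zinc-binding matrix subunit, had 634, 775 and 703 CPM in DMSO and 564, 585 and 567 CPM in MTZ. The gene cox4i1 (ENSDARG00000032970), for the subunit through which ATP inhibits the enzyme, had 384, 450 and 430 CPM in DMSO and 328, 350 and 357 CPM in MTZ. The small subunit gene cox8a had 405 ± 41.4 CPM in DMSO and 336 ± 27.6 CPM in MTZ. These differences were small, with log2 fold changes of -0.30 ± 0.21, -0.29 ± 0.23 and -0.27 ± 0.24, and none passed the test (edgeR adjusted p = 0.9997). The genes cox7b and cox7c had means of 679 ± 127 and 791 ± 186 CPM in DMSO and 525 ± 68.8 and 664 ± 118 CPM in MTZ. DMSO 1 lay within the MTZ values of both. On the other side, cox5ab and cox6c had log2 fold changes of 0.14 ± 0.34 and 0.02 ± 0.34, and cox6c changed sign with the scaling of the libraries.

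Several subunits of this complex exist as isoforms, and the isoform that gave most counts of a family was the same in every library. The counts of cox4i1 made up between 96.6% and 100% of the cox4i family, with cox4i2 (an isoform linked to low oxygen in mammals) at 174 counts in DMSO 1, 184 in DMSO 2 and 0 in the other 4 libraries. Between 76.9% and 83.7% of cox5a counts came from cox5aa, and between 70.0% and 81.7% of cox6b counts from cox6b2. In the cox7a family, cox7a2a gave between 58.2% and 75.6% and cox7a3 between 21.7% and 40.4%, the latter being highest in DMSO 3. The cox6a family came from cox6a1 (91.7% to 98.0%), with the counterpart of the mammalian heart and muscle isoform, cox6a2, at between 6.65 and 27.7 CPM and highest in DMSO 3. These shares are of counts and not per transcript length. The isoform cox5b2 was seen in DMSO 1 alone, with 106 counts, the library that also held the muscle transcripts. The gene cox7a1, whose mammalian counterpart is the muscle isoform, was highest in the same library at 17.9 CPM, with 1.99 and 7.30 CPM in the other DMSO libraries and at most 3.82 CPM in MTZ. Without DMSO 1 its log2 fold change moved from -2.32 ± 2.26 to -1.34. The isoform cox8b had 173 counts in DMSO 1, 1 and 0 in the other DMSO libraries, and 484, 80 and 240 in MTZ.

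The ndufa4 genes are grouped with complex I by their names, although in mammals the NDUFA4 protein is found with complex IV. The gene ndufa4l (ENSDARG00000099499) gave between 82.8% and 100% of the family's counts, with means of 470 ± 141 CPM in DMSO and 544 ± 14.5 CPM in MTZ. The gene ndufa4 (ENSDARG00000056108) was uneven, with 630, 2 and 193 counts in DMSO and 290, 1729 and 492 in MTZ. Its log2 fold change of 1.25 ± 1.70 moved to -0.03 without MTZ 2. The paralog ndufa4l2a, related to a hypoxia-induced mammalian gene, had 7 counts in MTZ 1, 145 in MTZ 2 and none elsewhere. Counting this family with complex IV moved the median of complex I from -0.17 to -0.20 and that of complex IV from -0.27 to -0.25.

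**Figure D4:**
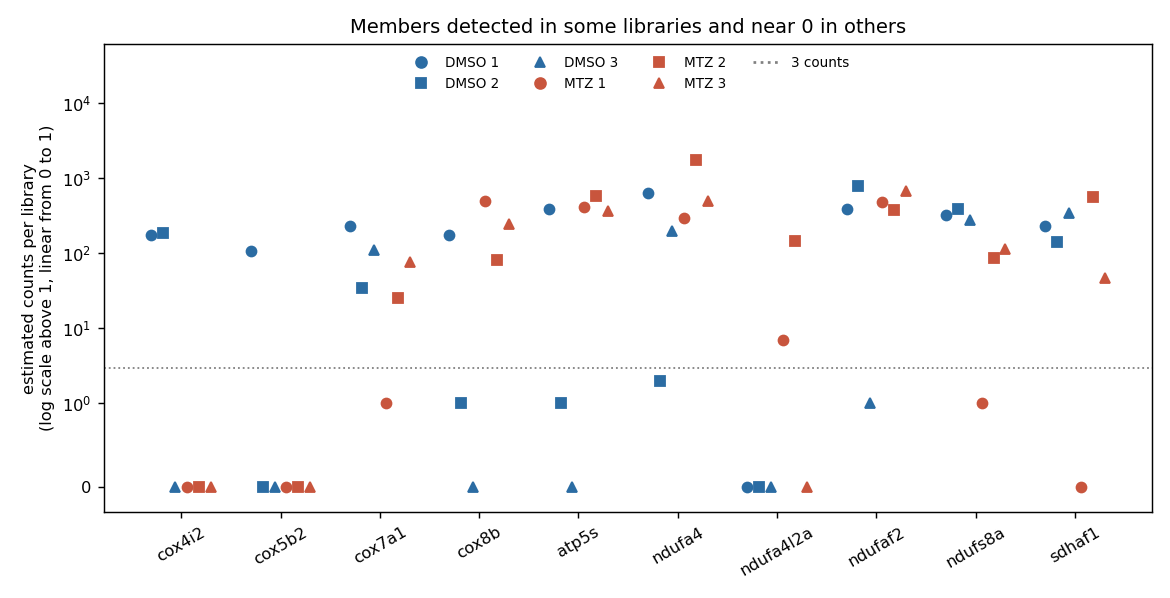
Estimated counts of the 10 members that had at most 3 counts in some library and at least 100 in another, on a scale that is logarithmic above 1 and linear from 0 to 1, with the dotted line at 3 counts. Of these, cox4i2 and cox5b2 were seen in DMSO libraries only and ndufa4l2a in MTZ libraries only, while cox8b, atp5s, ndufa4 and ndufaf2 were near 0 in at least 1 DMSO library and ndufs8a, sdhaf1 and cox7a1 in MTZ 1.

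The 10 members shown in that plot of uneven detection were chosen after their values were seen, and each had libraries of 50 cells as its source. Depending on the library, a count of 3 was worth 0.149 to 0.233 CPM. The gene atp5s (ENSDARG00000012072), for a factor associated with the ATP synthase, had 390, 1 and 0 counts in DMSO and 404, 574 and 363 in MTZ. The assembly factor gene ndufaf2 had 390, 766 and 1 counts in DMSO and between 377 and 675 in MTZ. The complex II assembly factor gene sdhaf1 had between 139 and 342 counts in DMSO and 0, 552 and 46 in MTZ. Within this set, the groups overlapped for each gene other than ndufs8a.

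Complex V held the members with the smallest p-values after ndufv1. The gene atp5fa1 (ENSDARG00000010149), for the alpha subunit of the catalytic head, had 277, 482 and 421 CPM in DMSO and 283, 207 and 188 CPM in MTZ. DMSO 1 lay just below MTZ 1, so the groups overlapped, and the log2 fold change was -0.80 ± 0.32 (edgeR unadjusted p = 0.0347, adjusted p = 0.9997). The beta subunit, which forms the head together with alpha, comes from atp5f1b (ENSDARG00000070083). It had 2418, 2662 and 2335 CPM in DMSO and 2307, 2241 and 2172 CPM in MTZ, with no overlap and a log2 fold change of -0.14 ± 0.16. The gene atp5pf (ENSDARG00000014313), for the stalk subunit known as coupling factor 6, had 322, 407 and 449 CPM in DMSO and 212, 257 and 277 CPM in MTZ. Its groups did not overlap, and its log2 fold change was -0.66 ± 0.27 (edgeR adjusted p = 0.9997).

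The rotor and other stalk genes of the ATP synthase given here had smaller fold changes than atp5fa1 and atp5pf. Not all of them were smaller than that of atp5f1b, and atp5f1e and atp5mc3b did not overlap between the groups. The gamma subunit gene atp5f1c (ENSDARG00000045514), for the rotating shaft, had 1412 ± 290 CPM in DMSO and 1532 ± 94.2 CPM in MTZ. The epsilon subunit gene atp5f1e, chosen after its values were seen, had 271 ± 35.9 and 215 ± 7.32 CPM and no overlap. The ring of c subunits, which turns with the proton flow, is encoded by atp5mc1, atp5mc3a and atp5mc3b, which gave 37.3% to 46.7%, 11.9% to 20.9% and 37.4% to 43.0% of the family's counts. Of these, atp5mc3b (ENSDARG00000009447) had 964, 1157 and 1200 CPM in DMSO and 929, 752 and 960 CPM in MTZ. All MTZ values were lower, by a narrow margin, with a log2 fold change of -0.33 ± 0.21. The stalk gene atp5po (ENSDARG00000001788) had 1418 ± 177 and 1302 ± 145 CPM. The inhibitor genes atp5if1a and atp5if1b, whose proteins stop the enzyme from running backwards, had log2 fold changes of -0.33 ± 0.36 and 0.13 ± 0.25, and atp5if1b gave between 69.2% and 80.1% of their counts. Of 20 tested members of complex V, 13 were lower (median -0.13, or -0.04 without DMSO 2).

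The mitochondrial genome gave more counts than the nuclear members in every library, with a ratio of 1.88, 1.28 and 1.28 in DMSO and 1.47, 1.60 and 1.62 in MTZ. DMSO 1 was the highest of all and the other DMSO libraries the lowest. The 13 genes summed to 50529, 42620 and 42617 CPM in DMSO and 38719, 46550 and 46108 CPM in MTZ, on the log2 scale -0.05 for the MTZ mean relative to DMSO, and 0.05 without DMSO 1. The genes of 1 genome did not share a direction. The gene mt-nd4 (ENSDARG00000063917), for a proton-pumping subunit of complex I, had 1472, 1575 and 1676 CPM in DMSO and 1361, 1138 and 1297 CPM in MTZ, with no overlap (log2 fold change -0.32 ± 0.18). The gene mt-nd5 (ENSDARG00000063921), for another pumping subunit, had 2005, 1532 and 1442 CPM in DMSO and 1738, 2393 and 2348 CPM in MTZ, with DMSO 1 above MTZ 1 (0.38 ± 0.21). The gene mt-atp6 (ENSDARG00000063911), for the subunit through which protons enter complex V, had 1656, 2359 and 2127 CPM in DMSO and 1694, 1335 and 1384 CPM in MTZ. Its log2 fold change was -0.48 ± 0.20 (edgeR unadjusted p = 0.0473, adjusted p = 0.9997), with DMSO 1 inside the MTZ range.

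The genes of the catalytic core of complexes III and IV gave most mitochondrial counts. The cytochrome b gene mt-cyb (ENSDARG00000063924) had 9285 ± 1590 CPM in DMSO and 10628 ± 1510 CPM in MTZ. The oxidase genes mt-co1, mt-co2 and mt-co3 had 6311 ± 437, 14740 ± 1925 and 7190 ± 1088 CPM in DMSO, and 5060 ± 1136, 13950 ± 1312 and 7188 ± 672 CPM in MTZ. Their log2 fold changes were -0.32 ± 0.19, -0.08 ± 0.15 and 0.00 ± 0.16, and the last changed sign with the scaling. Taken as shares of the 13 genes' counts, which need no scaling between libraries, 3 genes did not overlap between the groups. The share of mt-nd5 was 3.97%, 3.60% and 3.38% in DMSO and 4.49%, 5.14% and 5.09% in MTZ. The share of mt-cyb was 19.2% to 22% in DMSO and 23.2%, 23.6% and 25.8% in MTZ. The share of mt-co1 was lower in MTZ, at 10.1%, 13.2% and 11.1% against 13.3%, 13.7% and 15.0%, with MTZ 2 just below DMSO 1. In CPM these 3 genes overlapped between the groups. On that scale mt-nd4 alone among the 12 tested mitochondrial members did not overlap (8.33%, against 5.17% of all genes lower). Shares of 1 total are tied to each other, 13 were compared, and 3 libraries against 3 cannot give an exact permutation p below 0.1.

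**Figure D5:**
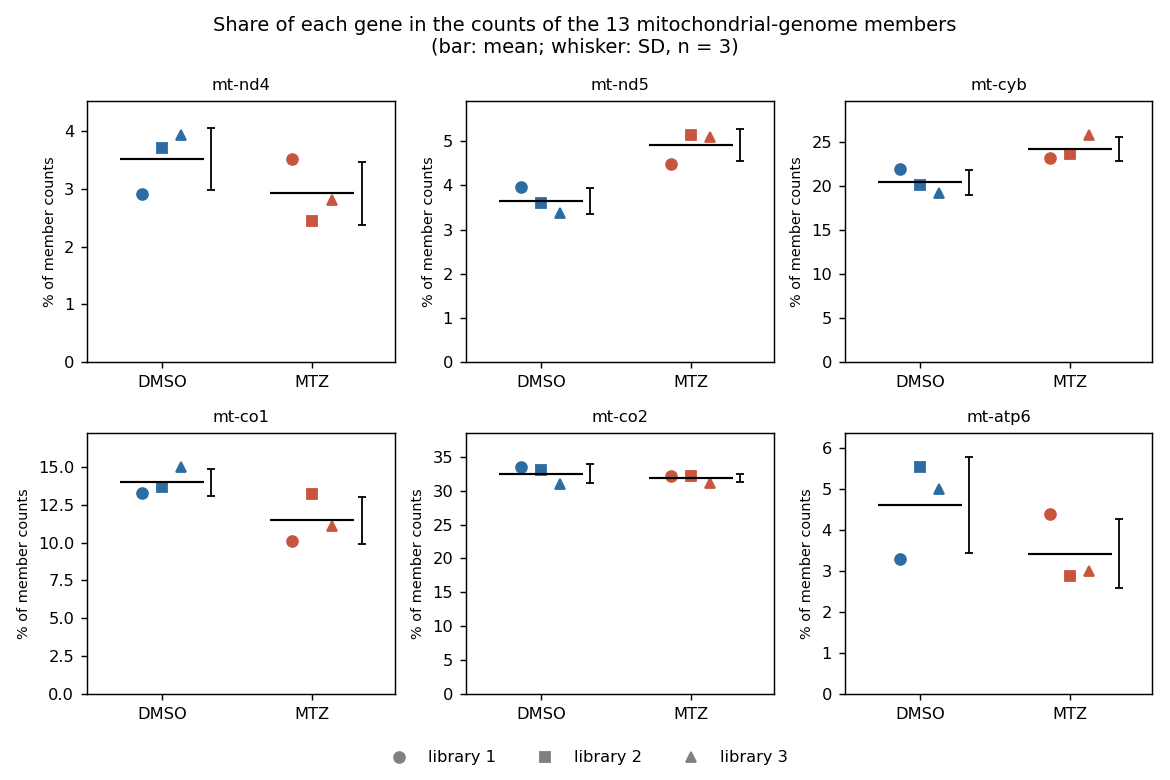
Percent of the counts of the 13 mitochondrial-genome members that came from each of 6 of them, with 1 point per library, a bar for the mean and a whisker for the SD (n = 3). The shares of mt-nd5 and mt-cyb are higher in every MTZ library (means of 4.91% against 3.65% and 24.2% against 20.4%). That of mt-co1 is lower by a narrow margin, and the other panels overlap.

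The remaining mitochondrial genes overlapped between the groups. The complex I genes mt-nd1, mt-nd2, mt-nd3 and mt-nd6 had log2 fold changes of -0.28 ± 0.21, -0.20 ± 0.23, -0.41 ± 0.61 and -0.17 ± 0.28. Genes that lie on top of each other were counted very unevenly. The gene mt-atp8, whose reading frame overlaps that of mt-atp6, had between 2 and 13 counts per library and was not tested. The gene mt-nd4l, which overlaps mt-nd4, had between 170 and 416 counts (log2 fold change 0.33 ± 1.49). How reads of overlapping genes were assigned, and whether strand was used, is not stated in the labels, so the values of these pairs, and of mt-nd6 on the opposite strand, are uncertain.

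Genes next to the chain were read from lists of names fixed with earlier results known. Among electron carriers and related genes outside the rule, 5 of 7 tested were higher (median 0.24). Cytochrome c1, a catalytic part of complex III from cyc1, had 510 ± 135 CPM in DMSO and 623 ± 176 CPM in MTZ. The cytochrome c gene cycsb had 736 ± 133 and 875 ± 151 CPM. Of 39 tested genes in the list of assembly and expression factors of the complexes, 20 were higher and 19 lower (median 0.06). The 19 include a row with the symbol rpl37 (-0.31 ± 0.97), a ribosomal protein name, which was matched to a listed name by gene ID. In the same list, the copper chaperone gene cox17 had 558 ± 208 CPM in DMSO and 362 ± 72.7 CPM in MTZ. The gene lrpprc, whose protein stabilises mitochondrial messages, had 33.2, 261 and 108 CPM in DMSO and 73.5, 33.6 and 18.3 CPM in MTZ, and its log2 fold change moved from -1.68 ± 0.85 to -0.75 without DMSO 2. No gene of these lists was called by edgeR (adjusted p = 0.9997).

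In the tricarboxylic acid cycle, which feeds the chain with NADH and succinate, 13 of 21 tested genes were lower and 8 higher (median -0.04). The gene idh3a, for the catalytic subunit of NAD-dependent isocitrate dehydrogenase, had 133, 175 and 147 CPM in DMSO and 356, 281 and 350 CPM in MTZ. Every MTZ library was well above every DMSO library, with a log2 fold change of 1.12 ± 0.28. It was called by DESeq2 (adjusted p = 0.0419, with 0.747% of genes called higher) and not by edgeR (adjusted p = 0.9997). Its regulatory partner gene idh3g had 41.7, 8.07 and 49.3 CPM in DMSO and 99.8, 57.1 and 136 CPM in MTZ, also without overlap (1.56 ± 0.82). The third subunit gene of this enzyme, idh3b, lay the other way, with 49.1, 160 and 83.6 CPM in DMSO and 17.5, 61.9 and 91.0 CPM in MTZ, overlapping (-0.78 ± 0.76). Of the 21 genes, idh3a and idh3g were the 2 with every MTZ library above (9.52%, against 5.58% of all genes). The citrate cycle gene mdh2 had 446 ± 75.4 and 449 ± 64.0 CPM.

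The list of mitochondrial DNA expression and nuclear regulators had 9 higher and 10 lower genes of 19 tested (median -0.05). Groups did not overlap in 5 of them, 1 higher (5.26%, against 5.58% of all genes) and 4 lower (21.1%, against 5.17%). The higher gene was gabpa, for an ETS factor known in mammals to bind promoters of respiratory genes, with 0.156, 26.3 and 20.1 CPM in DMSO and 74.7, 61.1 and 63.4 CPM in MTZ. DMSO 1 was close to 0, and the log2 fold change was 2.10 ± 1.44. The lower genes were mterf3 (65.2 ± 10.8 CPM in DMSO and 20.2 ± 15.0 CPM in MTZ), known as a repressor of mitochondrial transcription in mammals, tfb1m, yy1b and mycb. The gene tfam, for a protein that packs mitochondrial DNA and takes part in its transcription, had 42.4, 134 and 112 CPM in DMSO and 201, 117 and 206 CPM in MTZ (0.86 ± 0.51), with overlap. None of these was called by edgeR or DESeq2.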

How the data were processed

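Estimated counts for each gene, not scaled to a common total, were deposited in 1 table by the authors for 3 DMSO and 3 MTZ libraries. Per the submitters' processing notes, HISAT2 and GRCz11 were used; for the counting tool, annotation release and strand the sources used here give nothing. The estimated counts were rounded to whole numbers. Between 8.31% and 9.90% of nonzero values had decimals. The test of MTZ against DMSO was the two-sided quasi-likelihood test of edgeR 4.0.16 (R 4.3.3) with TMM factors, its default expression filter and the group alone, fitted on all genes, with Benjamini-Hochberg adjustment over the 10283 genes tested and calls at an adjusted p under 0.05. Standard errors are the size of the fold change over the square root of F. Sums of CPM over members carry no test. DESeq2 1.42.0 and limma 3.58.1 were alternatives, beside other scalings, filters, a robust fit, the replicate number as a block and each library left out. On simulated counts the edgeR test recovered most changed genes when the spread between libraries was set low. It called none of them when the spread was set high, though still below the common spread of these libraries over all genes. Each simulation gave all genes the same spread, whereas members varied less than most genes (median coefficient of variation 22.8% against 82.1%). The simulations therefore do not show how the test performs for the members.

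Members and lists were chosen with earlier results of these data known. Named members were ndufv1, atp5fa1, all mitochondrial genes, the 3 of smallest p and the 3 of highest CPM in each complex, isoform families, and any member called by edgeR or DESeq2 (there was none). Members named beside these (ndufv2, ndufs1, ndufv3, ndufs7, ndufs8a, ndufa5, ndufa9a, ndufaf4, ndufb11, sdhb, uqcrb, cox6c, atp5f1e, atp5s, ndufaf2 and sdhaf1) and genes of the other lists were chosen after their values were seen. A member that the rule names is not reported here. Of 267 names in the lists, 257 were found. Reads carry no molecular identifiers, so floors cover counting error only. No sequences or coordinates are printed.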

Additional observations from a re-analysis of the deposited data

How the results depend on the processing

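Under 16 alternatives the count of members called stayed at 0, and the count of genes called over all genes was 0 except with DESeq2 (130) and without a filter (52). The medians and sums by complex moved by less than 1 SD between libraries, except that the median of the nuclear complex III members was -0.23 with a filter of 10 CPM in 3 libraries, which leaves out the weakly detected uqcrb. With a library left out, medians ran from -0.26 to -0.10 for all nuclear members, from -0.24 to -0.05 for complex I, from -0.42 to -0.20 for complex II, from -0.12 to 0.06 for complex III, from -0.40 to -0.19 for complex IV and from -0.21 to -0.04 for complex V. Of 52 tested members named by the rule, 42 kept their sign under every alternative run. The log2 fold change of mt-co3 was 0.04 with limma voom, 0.00 with mitochondrial genes left out of the totals, and 0.01 without a filter. With a library left out the values that crossed 0 ran from -0.06 to 0.14 for mt-co3, -0.15 to 0.04 for mt-co2, -0.17 to 0.09 for cox5aa, -0.23 to 0.28 for atp5mc3a, -0.01 to 0.30 for atp5if1b, -1.07 to 0.33 for cox6a2, -0.53 to 0.21 for cox7a3, -0.45 to 0.12 for COX7A2 (1 of many), -0.03 to 2.95 for ndufa4 and -0.03 to 0.41 for uqcrh. Among members named outside the rule it also crossed 0 for sdhb (-0.17 to 0.38), ndufs1 (-0.93 to 0.30), ndufs7 (-0.27 to 0.02), ndufa5 (-0.06 to 0.15), cox6c (-0.13 to 0.18), ndufaf2 (-0.44 to 0.87) and sdhaf1 (-3.79 to 0.20). The cause was not tested.

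The replicate block called 0 genes and 0 members, gave a nuclear median of -0.22 and turned mt-co3 to 0.01. Deviations of same-numbered libraries correlated at -0.0153, 0.00706 and -0.0467, and 1 of 6 libraries correlated best with its own number, so the numbers were not taken to pair the libraries. With 50 cells and 3 libraries per group, 10 members ranged from at most 3 counts in some library to at least 100 in another, which limits what can be said of them.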

Other observations

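Genes that bear on how the chain is coupled lay around the members without passing the test. The uncoupling protein gene ucp2, whose protein sits in the inner membrane, had 1001, 629 and 452 CPM in DMSO and 786, 1350 and 1411 CPM in MTZ. DMSO 1 lay above MTZ 1, and the log2 fold change was 0.77 ± 0.35 (edgeR unadjusted p = 0.0567, adjusted p = 0.9997), or 1.14 without DMSO 1 and 0.54 without DMSO 3. The list of uncoupling and hypoxia genes had 4 higher and 3 lower genes of 7 tested (median 0.20). Its hypoxia factor gene hif1ab had 61.3, 97.4 and 85.0 CPM in DMSO and 155, 109 and 138 CPM in MTZ, without overlap (log2 fold change 0.72 ± 0.42). It was 1 of the 7, or 14.3%, against 5.58% of all genes with every MTZ library above. In the synthesis of coenzyme Q, the carrier between complexes I or II and III, 6 of 12 tested genes were higher and 6 lower (median -0.02). The gene coq4, for a protein needed in that synthesis, was the member without overlap, with 14, 8.19 and 0 CPM in DMSO and 59.0, 49.5 and 44.6 CPM in MTZ. Its log2 fold change was 2.79 ± 1.87. As 1 of 12 it made up 8.33%, against 5.58% of all genes with every MTZ library above. No gene of either list was called by edgeR or DESeq2.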
